A study of Mus musculus with 16 samples.

Results

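Interferon-stimulated antiviral genes are the genes that a cell switches on when an interferon reaches its receptor. The 45 genes described here are the rows of the deposited count table whose symbol is on a list of interferon signalling factors, nucleic acid sensors and antiviral effectors. The list was chosen with earlier results of these data known. Its genes are 45 of the 55414 genes in the table. All 45 had enough counts to be tested, among 15693 genes tested. The guanylate-binding proteins (GBP), the immunity-related GTPases (IRG) and the MHC class I genes also respond to interferon but were not on the list, and they are given separately.

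The cells were mouse lung endothelial cells (MLECs), obtained in 4 separate isolations from mice on a C57BL/6 background that carried floxed *Eng* alleles (Eng fl/fl), a tamoxifen-activated Cre recombinase at the Rosa26 locus and the Immorto transgene. One portion of each isolation was exposed to 4-OH-tamoxifen to delete *Eng* (KO) and another to vehicle (Ctrl). Both were starved of serum overnight and treated for 90 min with PBS or with the growth factor BMP9 at 0.2 ng/ml of its growth factor domain. BMP9 was given to Ctrl cells as a complex with monomeric soluble endoglin (sENG(M):BMP9) and to KO cells as a complex with its prodomain (pro:BMP9). There were thus 4 groups, PBS-treated and ligand-treated cells of each genotype, with 4 libraries per group and 1 per isolation. Genotype and exposure to 4-OH-tamoxifen coincide in every KO library, and the ligand form coincides with them in the ligand-treated ones, so their effects cannot be told apart. Ctrl and KO cells differ only by treatment in culture, and the Cre is not restricted to endothelial cells. All cells had been maintained in medium with interferon-γ at 20 U/ml and the TGF-β receptor inhibitor SB431542 at 1 μM. Interferon-γ, SB431542 and 4-OH-tamoxifen were then left out of the medium, from the day before the serum starvation onwards.

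As background, type I interferons signal through IFNAR1 and IFNAR2 and the kinases JAK1 and TYK2 to a complex of STAT proteins and IRF9, which binds the interferon-stimulated response element (ISRE) in the promoters of its target genes. Interferon-γ signals through its own receptor, JAK1 and JAK2 to gamma-activated sites in promoters, and raises many of the same genes. The Immorto transgene, a temperature-sensitive large T antigen under an interferon-inducible promoter, is the reason such cells are grown with interferon-γ.

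RefSeq promoters (GRCm38.p6, from 250 bases before to 50 bases after each annotated start) could be matched by symbol to 34 of the 45 genes. The ISRE core (GAAA, any 2 bases, GAAA), searched on both strands, was found in 15 of these 34 (44.1%) and in 3.99% of the 27025 genes with a promoter of this length. The same core followed by C, which overlaps it by definition, was found in 12 of 34 (35.3%) against 0.944%. The gamma-activated site TTCNNNGAA was found in 9 of 34 (26.5%) against 9.55%, and the GC-rich BMP SMAD element GGCGCC in 2 of 34 (5.88%) against 13.4%. The genes with the core were *Stat2*, *Ifih1*, *Eif2ak2*, *Oas1a*, *Oas3*, *Ifit1*, *Ifit3*, *Isg15*, *Bst2*, *Ifitm3*, *Rsad2*, *Slfn5*, *Trim30a*, *Cxcl10* and *Lgals9*. A match describes these letters only and says nothing about binding in these cells. The stretches below are those of the genes whose values carry the comparisons and whose match lies before the start. Each is read 5′ to 3′ on the strand of the gene, with 15 bases on either side of its matches, and the capitals mark the ISRE core in either orientation (TTTC, any 2 bases, TTTC is its reverse complement).
*Isg15* (chr4:156200860-156200911, minus strand): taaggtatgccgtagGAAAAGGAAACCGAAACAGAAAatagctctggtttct
*Bst2* (chr8:71537572-71537617, minus strand): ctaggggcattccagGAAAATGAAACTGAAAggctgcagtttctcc
*Ifit1* (chr19:34640770-34640828, plus strand): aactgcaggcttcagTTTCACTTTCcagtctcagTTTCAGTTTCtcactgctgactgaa
*Ifit3* (chr19:34583358-34583431, plus strand): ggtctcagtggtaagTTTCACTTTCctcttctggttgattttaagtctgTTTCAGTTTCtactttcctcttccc
*Rsad2* (chr12:26456548-26456587, minus strand): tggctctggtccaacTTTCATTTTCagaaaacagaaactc
*Lgals9* (chr11:78984955-78984994, minus strand): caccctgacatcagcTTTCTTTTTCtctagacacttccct
*Isg15* held 3 overlapping matches between 78 and 57 bases before its start, and *Bst2* held 2 overlapping ones between 130 and 115 bases before it. *Ifit1* and *Ifit3* each held 2 separate matches, and *Rsad2* and *Lgals9* had 1 each in the bases before the start.

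Library totals lay between 14869115 and 17242117 counts. *Eng*, the deleted gene, was at 375 to 776 CPM (counts scaled to library size) in the 8 Ctrl libraries and at 40.1 to 130 CPM in the 8 KO libraries, so all libraries followed their labels. The 10 endothelial markers together made up 3399 to 7383 CPM. None had an adjusted p under 0.05 between KO and Ctrl cells by edgeR's quasi-likelihood test. At an unadjusted p under 0.05 by the same test, 5 of the 10 were higher in KO cells in PBS (3.18% of all genes were). With ligand 1 of the 10 was (4.67% of all genes), and in the average of both 5 were (5.86%). None was lower at that level, and the median log2 fold change in the average was 0.05. Of the 10 immune cell markers, *Siglech* was at 0 counts in every library and *Ptprc* had at most 5 counts, while *Cd68* and *Cd14* made up most of a sum of 58.6 to 144 CPM. Fibroblast and mural cell markers were present, at a sum of 98.5 to 114 CPM in isolation 2 and of 414 to 814 CPM in the other 3 isolations. In cultures sequenced in bulk, fewer cells of a type and less RNA per cell cannot be told apart.

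The interferon genes were expressed in every library, over a wide range. Per kilobase of transcript and averaged over the 16 libraries, the highest levels were those of *Ifitm3* (705 CPM per kb), which blocks virus entry at endosomes, *Bst2* (441 CPM per kb), the virion tether tetherin, *Lgals3bp* (143 CPM per kb), a secreted glycoprotein, and *Isg15* (137 CPM per kb), a ubiquitin-like protein that is attached to other proteins. The lowest were *Mx2* (3.27 CPM per kb), *Herc6* (3.03 CPM per kb) and *Mx1* (0.315 CPM per kb). Interferon genes themselves were hardly measured: of 11 interferon ligands, 8 were at 0 counts in all 16 libraries, *Ifna4* had at most 1 count, *Ifnb1* at most 5 and *Ifne* at most 7, and none passed the filter for testing.

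Before any comparison of groups, these genes differed between isolations. Isolation 4 had the highest mean over its 4 libraries for 41 of the 45 genes, as against 26.1% of all genes tested, and isolation 2 had the lowest for 39 of 45, as against 30.8%. The ratio of the highest to the lowest isolation mean had a median of 2.22 over the 45 genes and of 1.37 over all genes, and it reached 2 for 24 of 45 (53.3%) against 20.1%. It was 10.5 for *Oas2*, 6.88 for *Zbp1*, a sensor of left-handed nucleic acid helices, and 5.75 for *Ifit3*, and at its lowest 1.23 for *Slfn2*. *Irf1*, a transcription factor at the front of the interferon-γ response, went the other way, with its highest mean in isolation 2 (355 CPM) and its lowest in isolation 4 (157 CPM). *Rsad2*, *Cxcl10* and *Ifi27* were the other 3 genes not highest in isolation 4. The 4 libraries of an isolation share their starting cells, so isolations were not compared by a test.

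**Figure D1:**
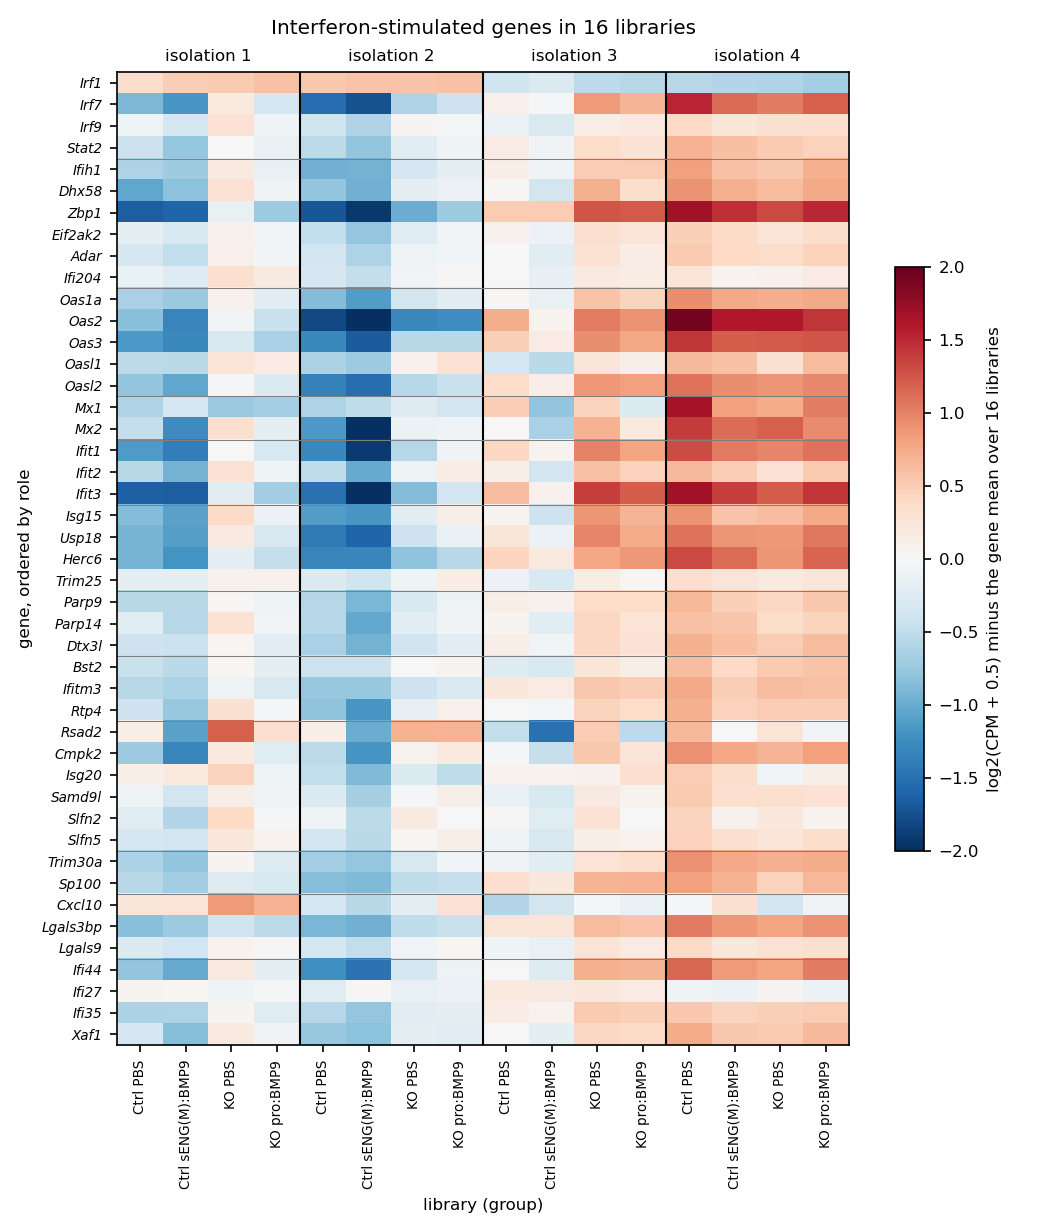
Expression of the 45 genes (ordered by role, separated by grey lines) in the 16 libraries, as log2(CPM + 0.5) minus the mean of the gene over all libraries (red, higher). Columns are grouped by isolation. The mean of isolation 4 is the highest for 41 of the 45 genes, the exceptions being *Irf1*, *Rsad2*, *Cxcl10* and *Ifi27*, and KO cells are above Ctrl cells on average in all of isolations 1 to 3 for 42 of the 45.

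In the average of PBS and ligand, KO cells had higher levels of most of these genes than Ctrl cells in 3 of the 4 isolations and not in the remaining one. Averaged over PBS and ligand, the KO against Ctrl log2 fold change was positive for 41 of the 45 genes, as against 49.6% of all genes, with a median of 0.35, while the median over all genes was -0.000816. By isolation, the median over the 45 genes was 0.59, 0.55, 0.43 and -0.10. In isolations 1 to 3 the average was higher in KO cells in every one of them for 42 of 45 genes, and in isolation 4 it was lower in KO cells for 42 of 45. *Bst2* and *Irf9* were the 2 genes higher in KO cells in all 4 isolations (7.93% of all genes were), with differences of 0.04 and 0.00343 in isolation 4.

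By edgeR's quasi-likelihood test with Benjamini-Hochberg adjustment over all genes and the isolation as a block, 29 of the 45 genes had an adjusted p under 0.05 for this average and were higher in KO cells, and none was lower (0.701% of all genes were called higher and 1.38% in either direction). Their log2 fold changes ran from 0.21 for *Trim25* to 0.78 for *Rsad2*, or 1.16-fold to 1.72-fold. These calls depend on how the spread is estimated. The PBS and ligand libraries of a genotype and isolation come from the same cells. When their counts were summed, leaving 4 Ctrl and 4 KO samples paired by isolation, none of the 45 genes had an adjusted p under 0.05 (0.121% of all genes did), although 40 of the 45 had an unadjusted p under 0.05 and were higher in KO cells (4.11% of all genes did), and the median was again 0.35. Without isolation 4, 41 of 45 were called higher (1.64% of all genes called) with a median of 0.53. Without isolation 1, 2 or 3 the number called was 1, 1 and 0.

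**Figure D2:**
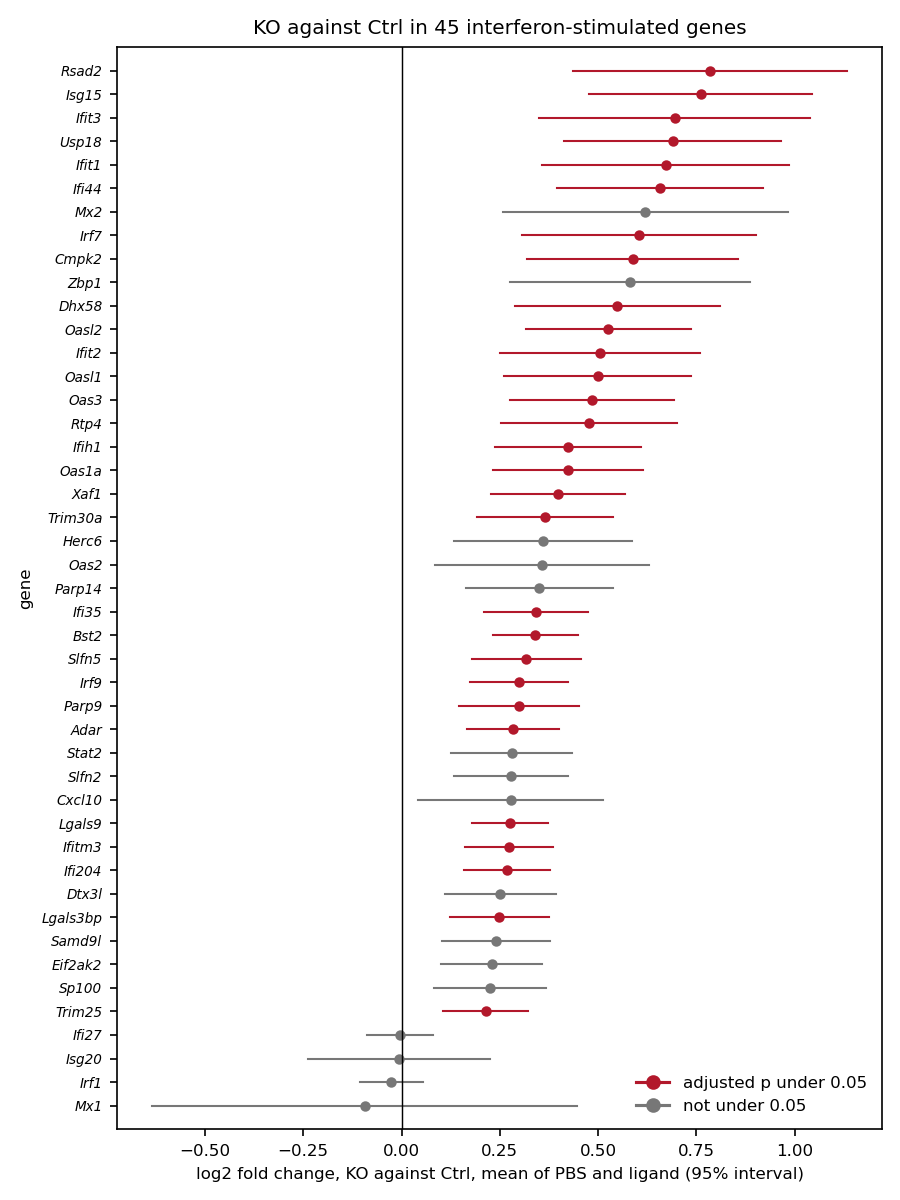
Log2 fold change of KO against Ctrl cells, averaged over PBS and ligand, for the 45 genes, with 95% intervals from edgeR's quasi-likelihood fit. Red marks an adjusted p under 0.05. The intervals count PBS and ligand libraries of the same cells as separate samples. With the counts of these libraries summed, none of the 45 genes had an adjusted p under 0.05. The 29 red genes are all to the right of 0, and *Ifi27*, *Isg20*, *Irf1* and *Mx1* sit at or just left of 0.

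**Figure D3:**
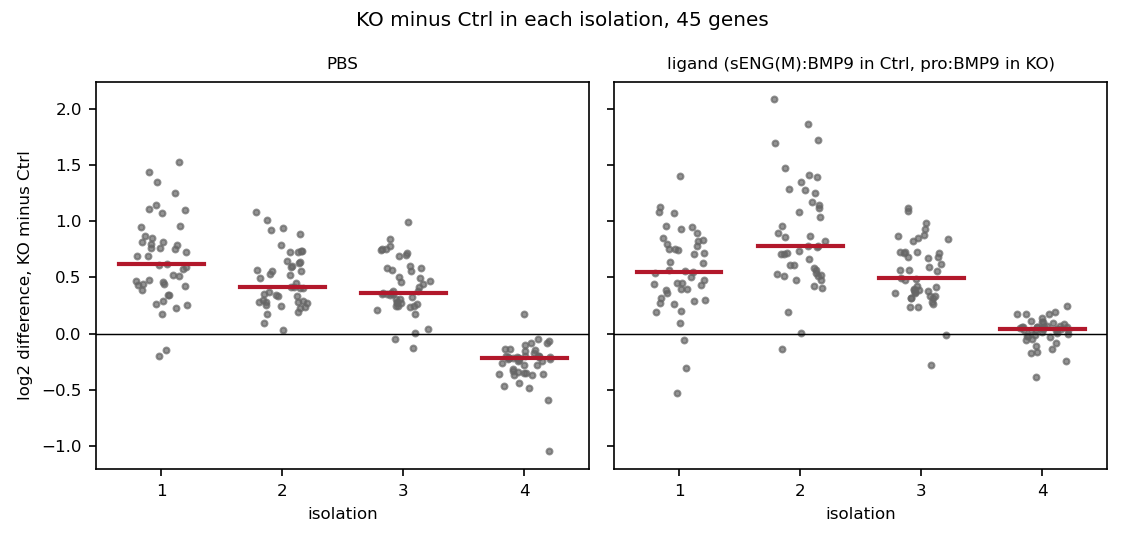
Log2 difference of KO minus Ctrl for each of the 45 genes (grey points) in each isolation, in PBS (left) and with ligand (right). Red bars are medians. The medians of isolations 1 to 3 lie between 0.36 and 0.78, and those of isolation 4 at -0.22 in PBS and 0.04 with ligand.

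Fibroblast and mural markers moved with the same comparison. In the average over PBS and ligand, 5 of the 10 fibroblast and mural markers were called lower in KO cells (*Pdgfrb* -0.24, *Col1a1* -0.29, *Col1a2* -0.23, *Dcn* -0.61 and *Lum* -1.07 on the log2 scale). In either direction, 1.38% of all genes were called. The median of the 10 was -0.13, -0.17, -0.19 and -0.52 in isolations 1 to 4. Of the 10 immune cell and the 10 lung epithelial markers, 4 of each had enough counts to be tested. In both lists 0 had an adjusted p under 0.05 by edgeR in this average. The part of any of these markers in the interferon result was not tested.

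In the gene paragraphs that follow, calls, standard errors and p-values of the average come from edgeR's fit to all libraries. There, PBS and ligand libraries of the same cells count as separate samples. Among the signalling factors, 2 of 4 were called higher in KO cells in the average over PBS and ligand: *Irf9* and *Irf7*. *Irf9* (ENSMUSG00000002325, chr14:55841028-55847487, plus strand, all gene positions in GRCm39 as in the deposited table) encodes the DNA-binding subunit of this STAT complex. *Irf9* was at 64.4, 52.5, 63.8 and 90.9 CPM in Ctrl PBS cells of isolations 1 to 4 and at 84.3, 72.0, 75.5 and 85.8 CPM in KO PBS cells. With ligand, *Irf9* was at 54.2, 45.1, 56.5 and 81.7 CPM in Ctrl cells and at 65.3, 67.6, 79.3 and 86.9 CPM in KO cells. Its level was higher in KO than in Ctrl cells in 3 of 4 isolations in PBS and in 4 of 4 with ligand, and the ranges of Ctrl and KO cells overlapped, as they did for each of the 21 genes given here library by library. The average difference was 0.30 (standard error 0.0591, adjusted p = 0.0146 by edgeR). *Irf9* shares 4.86% of its exon bases with *Rnf31* on the same strand. *Irf7*, which drives the transcription of interferon genes, had 0.61 (adjusted p = 0.0391 by edgeR) and ranged from 1 isolation to another by a factor of 4.61. *Stat2*, the partner of IRF9, had 0.28 and *Irf1* -0.03, and neither passed the threshold (adjusted p = 0.0730 and 0.863 by edgeR).

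Of the 6 nucleic acid sensors and their kin, *Ifih1*, *Dhx58*, *Adar* and *Ifi204* were called higher. *Ifih1* (ENSMUSG00000026896, chr2:62426142-62476599, minus strand) encodes MDA5, a cytosolic sensor of long double-stranded RNA. *Ifih1* was at 46.3, 36.5, 78.5 and 126 CPM in Ctrl PBS cells of isolations 1 to 4 and at 80.5, 56.3, 101 and 104 CPM in KO PBS cells. With ligand, *Ifih1* was at 43.6, 36.8, 68.2 and 107 CPM in Ctrl cells and at 64.7, 62.9, 101 and 118 CPM in KO cells. The KO values of isolations 1 to 3 were above the Ctrl values of the same isolation under both treatments, and those of isolation 4 were above only with ligand. On average the difference was 0.42 (standard error 0.0880, adjusted p = 0.0193 by edgeR). *Adar* (ENSMUSG00000027951, chr3:89622329-89660753, plus strand) encodes the enzyme that converts adenosines to inosines in double-stranded RNA. *Adar* was at 112, 109, 143 and 203 CPM in Ctrl PBS cells of isolations 1 to 4 and at 153, 132, 173 and 184 CPM in KO PBS cells. With ligand, *Adar* was at 100.4, 92.0, 121 and 187 CPM in Ctrl cells and at 137, 136, 157 and 195 CPM in KO cells. In isolation 4 its KO level was below Ctrl in PBS and above it with ligand, and the average difference was 0.28 (adjusted p = 0.0141 by edgeR). *Adar* shares 16.8% of its exon bases with *Chrnb2* on the other strand. *Ifi204* (ENSMUSG00000073489, chr1:173574859-173594509, minus strand) belongs to the PYHIN family of DNA-binding proteins, whose close copies may share reads. *Ifi204* was at 164, 142, 179.9 and 213 CPM in Ctrl PBS cells of isolations 1 to 4 and at 227, 173, 203 and 191 CPM in KO PBS cells. With ligand, *Ifi204* was at 149.7, 128, 160.5 and 187 CPM in Ctrl cells and at 203, 183, 199.9 and 201 CPM in KO cells. Isolation 1 had the highest KO level and isolation 4 the highest Ctrl level, and the average difference was 0.27 (adjusted p = 0.0131 by edgeR). *Dhx58*, encoding LGP2, a partner of MDA5, had 0.55 (adjusted p = 0.0307 by edgeR). *Zbp1* at 0.58 and *Eif2ak2*, the kinase PKR that halts translation, at 0.23 did not pass (adjusted p = 0.0577 and 0.0804).

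The oligoadenylate synthetases make a second messenger that activates RNase L when they bind double-stranded RNA. Of the 5 members of this family, 4 were called higher in KO cells, between 0.42 and 0.53, and *Oas2* was not. *Oasl1* (ENSMUSG00000041827, chr5:115061299-115075974, plus strand) is a member without enzyme activity. *Oasl1* was at 13.8, 12.8, 15.7 and 31.8 CPM in Ctrl PBS cells of isolations 1 to 4 and at 24.0, 21.4, 23.8 and 24.8 CPM in KO PBS cells. With ligand, *Oasl1* was at 13.7, 11.9, 13.6 and 30.3 CPM in Ctrl cells and at 22.5, 24.6, 21.7 and 31.5 CPM in KO cells. Its Ctrl values were alike in isolations 1 to 3 and more than 2 times higher in isolation 4, whereas its KO values lay between 21.4 and 31.5 CPM. The average difference was 0.50 (standard error 0.113, adjusted p = 0.0316 by edgeR). *Oasl2* (ENSMUSG00000029561, chr5:115034997-115050295, plus strand) was lowest in isolation 2 and highest in isolation 4 in each group. *Oasl2* was at 83.6, 56.3, 188 and 308 CPM in Ctrl PBS cells of isolations 1 to 4 and at 142, 97.6, 265 and 268 CPM in KO PBS cells. With ligand, *Oasl2* was at 70.0, 50.03, 159 and 278 CPM in Ctrl cells and at 118, 106, 255 and 284 CPM in KO cells. In isolation 4 the Ctrl level exceeded the KO level in PBS but not with ligand, and the average over all isolations was 0.53 (adjusted p = 0.0120 by edgeR). *Oas2* (ENSMUSG00000032690, chr5:120868398-120887918, minus strand) had the largest differences between isolations of all 45 genes. *Oas2* was at 6.63, 3.15, 20.5 and 47.4 CPM in Ctrl PBS cells of isolations 1 to 4 and at 11.7, 4.71, 25.4 and 38.0 CPM in KO PBS cells. With ligand, *Oas2* was at 4.57, 2.14, 12.9 and 38.1 CPM in Ctrl cells and at 8.83, 4.91, 23.4 and 33.7 CPM in KO cells. Within isolations 1 to 3 it was higher in KO cells under both treatments and within isolation 4 lower under both, and the average of 0.36 (standard error 0.129) had an adjusted p of 0.241 by edgeR. *Oas1a* and *Oas3* had 0.42 and 0.48.

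All 3 IFIT genes, of a family with members that bind viral RNA lacking the host cap modification, were called higher in the average. *Ifit1* (ENSMUSG00000034459, chr19:34618271-34627409, plus strand) and *Ifit3* (ENSMUSG00000074896, chr19:34560931-34566131, plus strand) lie in 1 cluster of related genes, so reads may be split among copies. *Ifit1* was at 42.0, 37.7, 124 and 230.1 CPM in Ctrl PBS cells of isolations 1 to 4 and at 93.4, 62.6, 186 and 183 CPM in KO PBS cells. With ligand, *Ifit1* was at 35.2, 24.3, 97.7 and 192 CPM in Ctrl cells and at 74.1, 88.9, 162 and 197 CPM in KO cells. Isolations 1 and 2 were low in Ctrl cells and about 2 to 4 times higher in KO cells with ligand. *Ifit3* was at 19.9, 21.9, 96.0 and 202 CPM in Ctrl PBS cells of isolations 1 to 4 and at 54.1, 34.1, 165 and 145 CPM in KO PBS cells. With ligand, *Ifit3* was at 19.7, 14.4, 66.7 and 164 CPM in Ctrl cells and at 38.6, 48.0, 145 and 170.3 CPM in KO cells. With ligand, both genes were higher in KO cells in 4 of 4 isolations, and in PBS in 3 of 4. The average differences were 0.67 (standard error 0.150) for *Ifit1* and 0.69 (standard error 0.164) for *Ifit3*, with adjusted p = 0.0299 and 0.0415 by edgeR. *Ifit2* had 0.51. The MX genes encode dynamin-like GTPases that trap virus particles, and neither was called. *Mx2* (ENSMUSG00000023341, chr16:97336508-97362100, plus strand) was at 6.89, 4.14, 9.84 and 26.5 CPM in Ctrl PBS cells and at 12.2, 8.90, 16.1 and 22.8 CPM in KO PBS cells, with 3.80, 2.08, 6.05 and 21.7 and 8.49, 9.25, 11.2 and 19.3 CPM after ligand. It was highest in isolation 4 in each group, and its average of 0.62 had a standard error of 0.173 (adjusted p = 0.0938 by edgeR). *Mx1*, at most 4.17 CPM in any library, had -0.09.

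Of the ISG15 system, *Isg15*, *Usp18* and *Trim25* were called higher and *Herc6*, the mouse ligase that attaches ISG15, was not (0.36, adjusted p = 0.129). *Isg15* (ENSMUSG00000035692, chr4:156283912-156285253, minus strand) shares 31.1% of its exon bases with an antisense long noncoding gene. *Isg15* was at 46.9, 39.1, 88.8 and 161 CPM in Ctrl PBS cells of isolations 1 to 4 and at 112, 74.4, 159 and 132 CPM in KO PBS cells. With ligand, *Isg15* was at 40.6, 38.1, 64.5 and 128 CPM in Ctrl cells and at 78.9, 93.0, 138 and 146 CPM in KO cells. In PBS it was about 2 times higher in KO cells in each of isolations 1 to 3, and lower in KO cells in isolation 4. The average difference of 0.76 (standard error 0.135, 1.69-fold, adjusted p = 0.00892 by edgeR) was second in size to that of *Rsad2*. *Usp18* (ENSMUSG00000030107, chr6:121222865-121247876, plus strand) encodes the protease that removes ISG15 and also restrains the interferon receptor. *Usp18* was at 27.3, 19.4, 61.6 and 111 CPM in Ctrl PBS cells of isolations 1 to 4 and at 59.3, 39.2, 103 and 95.2 CPM in KO PBS cells. With ligand, *Usp18* was at 23.9, 16.9, 48.0 and 96.9 CPM in Ctrl cells and at 41.7, 47.4, 87.7 and 109 CPM in KO cells. Its differences by isolation were 0.96, 1.24, 0.81 and -0.02 on the log2 scale, and the average was 0.69 (standard error 0.131, adjusted p = 0.0120 by edgeR). *Trim25*, a ubiquitin ligase of the RIG-I pathway, had 0.21.

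The membrane restriction factors were 3 of 3 called higher. *Bst2* (ENSMUSG00000046718, chr8:71986899-71990100, minus strand) had the lowest p of the 45 genes. *Bst2* was at 283, 289.5, 321 and 589 CPM in Ctrl PBS cells of isolations 1 to 4 and at 394, 383, 455 and 555 CPM in KO PBS cells. With ligand, *Bst2* was at 266, 289, 312 and 506 CPM in Ctrl cells and at 342, 402, 417 and 570.3 CPM in KO cells. Isolations 1 to 3 lay close together in each group and isolation 4 lay above them. KO cells were higher than Ctrl cells in every isolation with ligand and in isolations 1 to 3 in PBS, and the average difference was 0.34 (standard error 0.0514, 1.27-fold, adjusted p = 0.00536 by edgeR). *Ifitm3* (ENSMUSG00000025492, chr7:140589499-140590683, minus strand) shares 60.9% of its exon bases with an antisense gene. *Ifitm3* was at 305, 265, 518 and 758 CPM in Ctrl PBS cells of isolations 1 to 4 and at 416, 335, 651 and 686 CPM in KO PBS cells. With ligand, *Ifitm3* was at 289, 264, 500.4 and 629 CPM in Ctrl cells and at 360.4, 369, 630.3 and 671 CPM in KO cells. Isolations 3 and 4 were higher than isolations 1 and 2 in all groups, and the average difference between genotypes was 0.27 (adjusted p = 0.0142 by edgeR). *Rtp4*, a zinc finger protein that limits virus replication, had 0.48, and shares 26.6% of its exon bases with another gene on its strand.

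**Figure D4:**
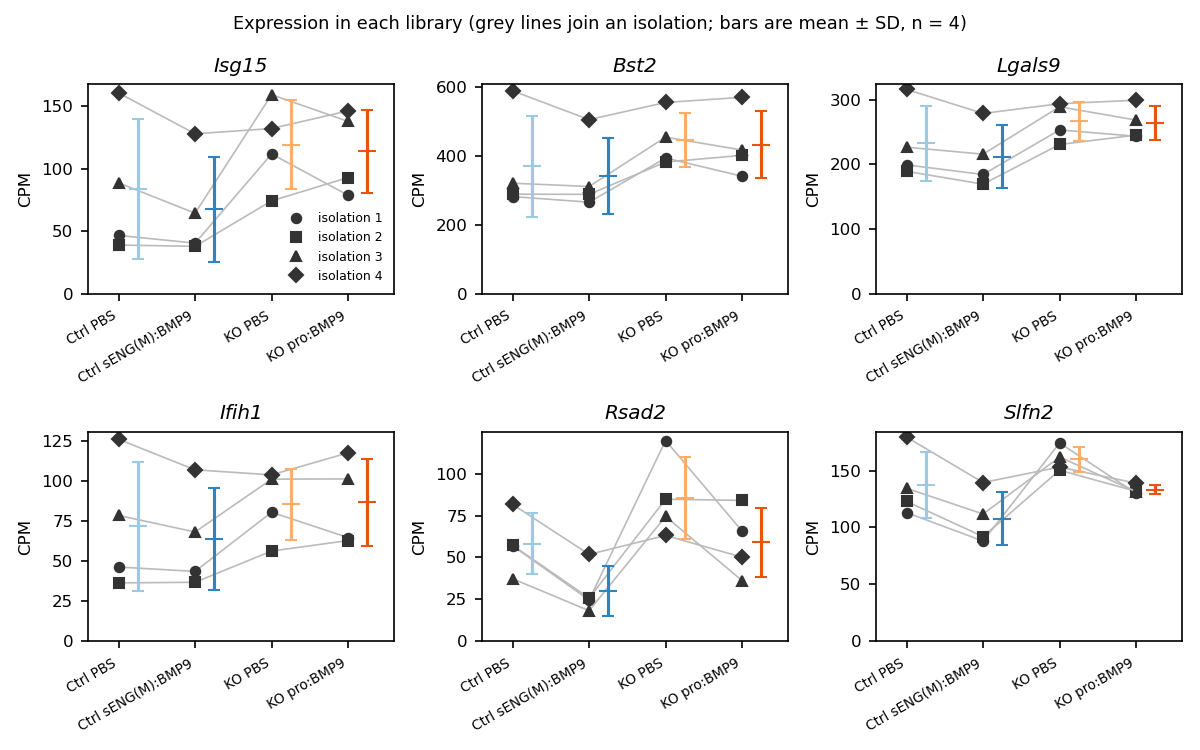
CPM in each library of 6 genes, with 1 marker shape for each isolation, grey lines joining the libraries of an isolation, and coloured bars for the group mean ± SD (n = 4). Isolation 4 (diamonds) is highest in Ctrl cells in all 6 panels, and *Rsad2* and *Slfn2* fall from PBS to ligand in Ctrl cells of every isolation.

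Of the 6 genes that act on nucleotides or RNA, *Rsad2*, *Cmpk2* and *Slfn5* were called higher in KO cells. *Rsad2* (ENSMUSG00000020641, chr12:26492745-26506451, minus strand) encodes viperin, which makes a nucleotide that stops viral polymerases. *Rsad2* was at 56.9, 57.3, 37.3 and 81.6 CPM in Ctrl PBS cells of isolations 1 to 4 and at 119.7, 84.7, 74.4 and 63.1 CPM in KO PBS cells. With ligand, *Rsad2* was at 24.7, 25.8, 18.3 and 51.8 CPM in Ctrl cells and at 65.7, 84.0, 36.2 and 50.2 CPM in KO cells. In Ctrl cells it was lowest in isolation 3 and highest in isolation 4, and in KO PBS cells it was highest in isolation 1. The average difference between genotypes, 0.78 (standard error 0.166, 1.72-fold, adjusted p = 0.0211 by edgeR), was the largest of the 45. *Cmpk2* (ENSMUSG00000020638, chr12:26519203-26529836, plus strand), its neighbour on the chromosome, encodes a mitochondrial nucleotide kinase. *Cmpk2* was at 19.4, 22.6, 31.9 and 61.8 CPM in Ctrl PBS cells of isolations 1 to 4 and at 37.6, 34.1, 47.8 and 52.5 CPM in KO PBS cells. With ligand, *Cmpk2* was at 12.9, 14.1, 23.7 and 56.0 CPM in Ctrl cells and at 27.5, 37.6, 39.1 and 58.2 CPM in KO cells. It was about 2 times higher in KO cells in isolations 1 and 2 and close to Ctrl cells in isolation 4 (average 0.59, adjusted p = 0.0252 by edgeR). *Slfn5*, of the Schlafen family of RNA-acting proteins, had 0.32 (adjusted p = 0.0199). *Slfn2*, of the same family, had 0.28 and *Samd9l* 0.24 (adjusted p = 0.0548 and 0.0863 by edgeR), and *Isg20*, an RNA exonuclease, had -0.01.

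Among the secreted proteins, *Lgals9* and *Lgals3bp* were called and *Cxcl10* was not. *Lgals9* (ENSMUSG00000001123, chr11:78853800-78875772, minus strand) encodes the sugar-binding galectin-9. *Lgals9* was at 199, 189, 227 and 316 CPM in Ctrl PBS cells of isolations 1 to 4 and at 253, 231, 289 and 294 CPM in KO PBS cells. With ligand, *Lgals9* was at 184, 169.6, 216 and 279 CPM in Ctrl cells and at 243, 245, 268 and 299 CPM in KO cells. On the log2 scale, KO minus Ctrl was 0.37, 0.41, 0.33 and -0.00114 in isolations 1 to 4, and the average was 0.28 (standard error 0.0463, adjusted p = 0.00770 by edgeR). *Cxcl10*, a chemokine for activated T cells, had 0.28 (standard error 0.112, adjusted p = 0.317). Of the remaining interferon-induced proteins, *Ifi44*, *Ifi35* and *Xaf1* were called and *Ifi27* (-0.00383) was not. *Ifi44* (ENSMUSG00000028037, chr3:151436559-151455597, minus strand) was the most different of them. *Ifi44* was at 49.9, 36.5, 85.6 and 192 CPM in Ctrl PBS cells of isolations 1 to 4 and at 97.4, 67.6, 141 and 149.9 CPM in KO PBS cells. With ligand, *Ifi44* was at 42.6, 30.5, 72.2 and 157 CPM in Ctrl cells and at 75.8, 80.4, 138 and 177 CPM in KO cells. Its order of isolations was 2, 1, 3 and 4 from low to high in Ctrl cells, and the average difference was 0.66 (standard error 0.125, adjusted p = 0.0120 by edgeR). *Ifi35* (ENSMUSG00000010358, chr11:101339233-101349524, plus strand) had smaller differences between isolations. *Ifi35* was at 41.1, 43.0, 70.9 and 93.2 CPM in Ctrl PBS cells of isolations 1 to 4 and at 66.6, 54.6, 92.3 and 89.3 CPM in KO PBS cells. With ligand, *Ifi35* was at 41.6, 37.2, 67.5 and 87.9 CPM in Ctrl cells and at 54.4, 56.9, 89.9 and 91.5 CPM in KO cells. In isolation 4 it was alike in the 4 groups, at 87.9 to 93.2 CPM, and the average difference was 0.34 (adjusted p = 0.0104 by edgeR). *Ifi35* shares 13.0% of its exon bases with *Vat1* on the other strand. *Xaf1* (ENSMUSG00000040483, chr11:72192455-72204559, plus strand) encodes a protein that promotes cell death. *Xaf1* was at 48.7, 36.1, 61.7 and 103 CPM in Ctrl PBS cells of isolations 1 to 4 and at 69.6, 53.3, 82.2 and 88.5 CPM in KO PBS cells. With ligand, *Xaf1* was at 33.8, 34.6, 54.3 and 89.5 CPM in Ctrl cells and at 58.3, 53.1, 80.1 and 96.5 CPM in KO cells. KO values were higher in all 4 isolations with ligand and in 3 of 4 in PBS (average 0.40, adjusted p = 0.0166 by edgeR). The PARP9-DTX3L group, which modifies proteins with ADP-ribose and ubiquitin, had 1 of 3 called (*Parp9*, 0.30), beside *Parp14* at 0.35 and *Dtx3l* at 0.25. Of the nuclear body and TRIM proteins, *Trim30a* was called (0.37) and *Sp100* was not (0.23).

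Under ligand alone, the comparison that sets ENG-dependent against ENG-independent signalling, 43 of the 45 genes were higher in KO cells (50.4% of all genes were), with a median of 0.44 on the log2 scale (0.000723 over all genes), and 29 were higher in all 4 isolations (7.90% of all genes were). In this comparison 2 of the 45 were called, both higher: *Bst2* at 0.36 (standard error 0.0727, adjusted p = 0.0462) and *Lgals9* at 0.34 (standard error 0.0655, adjusted p = 0.0367) by edgeR, where 0.0892% of all genes were called higher and 0.255% in either direction. At an unadjusted p under 0.05, 40 of 45 were higher (4.67% of all genes were). The adjusted p was 0.0604 for *Isg15* (0.86), 0.0867 for *Ifit1* (0.85), 0.115 for *Ifit3* (0.86), 0.0755 for *Irf9* (0.35), 0.0867 for *Ifih1* (0.50) and 0.126 for *Oasl1* (0.58) by edgeR. The median over the 45 genes was 0.55, 0.78, 0.50 and 0.04 in isolations 1 to 4, and in isolation 4, too, 31 of the 45 were higher in KO cells. Leaving out isolation 4 gave 41 called (1.12% of all genes were), and leaving out any of the others gave 0. DESeq2 called 11 (0.898% of all genes were called). The study's order of quantile normalisation, ComBat and DESeq2 called 40 (3.39% of all genes were). A filter of at least 10 counts in every library left 0 called (0.211% of all genes were).

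In PBS, 43 of the 45 genes were higher in KO cells (49.6% of all genes were), with a median of 0.28, and none was called by edgeR, as only 0.0191% of all genes were. At an unadjusted p under 0.05, 29 of the 45 were higher (3.18% of all genes were), and DESeq2 called 1 (0.0446% of all genes were). The median was 0.62, 0.42 and 0.36 in isolations 1 to 3 and -0.22 in isolation 4. The numbers of genes lower in KO cells were 2, 0, 2 and 44 in the 4 isolations. *Irf9* had a log2 fold change of 0.25, *Ifih1* of 0.35 and *Oasl1* of 0.42 in PBS (adjusted p = 0.521, 0.557 and 0.620 by edgeR). Leaving out isolation 4 gave 33 called, all higher (0.44% of all genes were called). The PBS and ligand comparisons use different libraries of the same 4 isolations.

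Other parts of the interferon pathway were compared between genotypes in the same fit, averaged over PBS and ligand, and no test was made between the lists. Of all genes, 0.701% were called higher in this average and 1.38% in either direction. Of 11 tested regulatory factors and feedback regulators, 0 were called by edgeR, and 0 had an unadjusted p under 0.05. Of 12 tested upstream adaptors and kinases, *Ddx58*, the RNA sensor RIG-I, was called (0.22, adjusted p = 0.0146). Of the 17 GBP and IRG genes, GTPases that act on vacuoles of intracellular pathogens, 5 were called higher: *Gbp3* (0.40), *Gbp9* (0.19), *Irgm2* (0.41), *Tgtp1* (0.35) and *Tgtp2* (0.46), the last pair being close copies that may share reads. Their median by isolation was 0.41, 0.47, 0.29 and -0.11. Of 16 MHC class I and antigen presentation genes, *H2-T22* (0.24) and the peptide transporter *Tap1* (0.21) were called, with medians by isolation of 0.25, 0.23, 0.11 and -0.05. In both lists, too, isolation 4 alone had a median below 0. Without it 12 of the 17 GBP and IRG genes and 8 of the 16 MHC genes were called higher (1.64% of all genes were called).

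In Ctrl cells treated with ligand for 90 min, most of these genes had slightly lower values than in PBS, and the share of them called was close to that of all genes. With sENG(M):BMP9, 42 of the 45 genes had a negative log2 fold change against PBS (51.9% of all genes had), with a median of -0.19 (-0.00511 over all genes), and 34 were lower in all 4 isolations (13.6% of all genes were). By edgeR, *Rsad2* and *Slfn2* were called lower and none was called higher, where 3.83% of all genes were called lower and 9.69% in either direction. *Rsad2*, whose values per library are given above, fell in each isolation (log2 differences -1.20, -1.15, -1.03 and -0.65), with a fold change of 0.516 (log2 -0.95, standard error 0.240, adjusted p = 0.0134 by edgeR). *Slfn2* (ENSMUSG00000072620, chr11:82955938-82961504, plus strand), a Schlafen protein that T cells need to stay quiescent, changed by less but evenly. *Slfn2* was at 113, 123, 134 and 179 CPM in Ctrl PBS cells of isolations 1 to 4 and at 174, 150.3, 162 and 153 CPM in KO PBS cells. With ligand, *Slfn2* was at 88.1, 92.0, 112 and 139 CPM in Ctrl cells and at 130.0, 132, 131 and 139 CPM in KO cells. Its ligand values were below the PBS values of the same isolation in both genotypes, and in KO cells the 2 sets of values did not overlap. The log2 fold change in Ctrl cells was -0.35 (standard error 0.0980, adjusted p = 0.0271 by edgeR). Without isolation 1, 1 of these 2 calls remained. Both were lost without isolation 2 or isolation 3, and 10 genes were called lower without isolation 4 (8.87% of all genes were called). *Mx2* (-0.55, standard error 0.249) and *Oas2* (-0.46, standard error 0.183) were lower in each isolation but not called (adjusted p = 0.227 and 0.147 by edgeR), and *Irf9* (-0.20), *Ifih1* (-0.15) and *Oasl1* (-0.09) were not called either.

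With pro:BMP9 in KO cells, none of the 45 genes was called (5.59% of all genes were called in either direction). By edgeR's unadjusted p under 0.05, 2 were lower (6.28% of all genes were) and 0 higher (7.83% of all genes were), and DESeq2 called 0. The median was -0.04, and by isolation -0.29, 0.14, -0.11 and 0.09. Isolations 1 and 3 thus had most genes lower with ligand (41 and 39 of 45), while isolations 2 and 4 had few (7 and 10). *Rsad2* had -0.57 (standard error 0.225, adjusted p = 0.211), with -0.86, -0.01, -1.04 and -0.33 by isolation, and *Slfn2* had -0.27 (standard error 0.0970, adjusted p = 0.147 by edgeR), with -0.42, -0.19, -0.30 and -0.14. *Irf9* had -0.09, *Ifih1* 0.000199 and *Oasl1* 0.07.

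**Figure D5:**
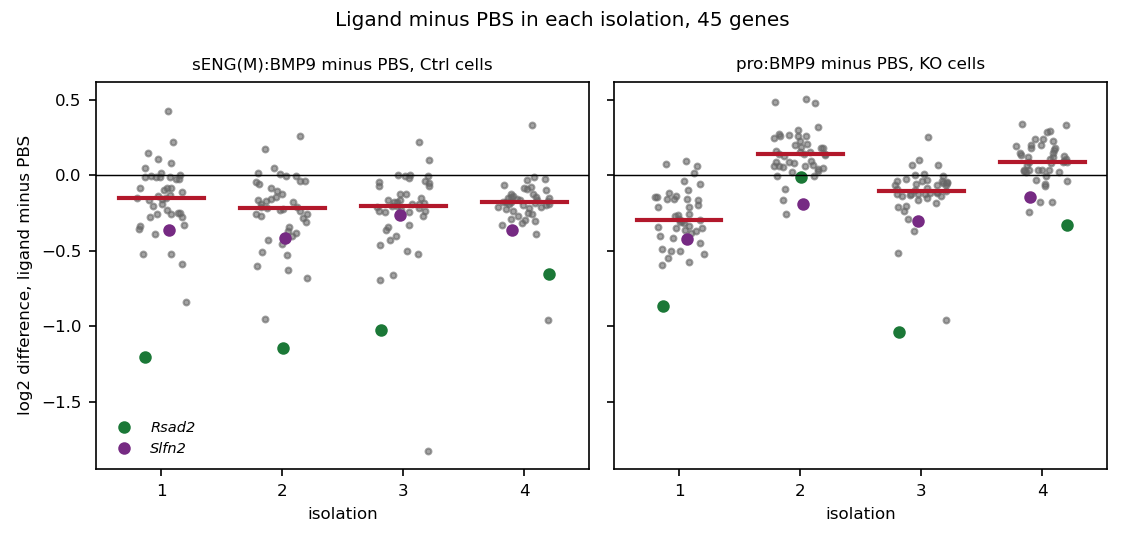
Log2 difference of ligand minus PBS for each of the 45 genes (points) in each isolation, in Ctrl cells (left) and KO cells (right). Red bars are medians, green points *Rsad2* and purple points *Slfn2*. In Ctrl cells all 4 medians lie below 0, and in KO cells those of isolations 1 and 3 do.

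The ligand did act on the cells in both genotypes. Of 10 BMP target genes, 9 were called higher with ligand in Ctrl cells and 9 in KO cells, with a median of 2.57 in Ctrl cells and 2.57 in KO cells on the log2 scale. Of 34 tested receptors, kinases, regulatory factors and adaptors of the interferon pathway, 12 were called in Ctrl cells and 8 in KO cells, beside 9.69% and 5.59% of all genes, and the rest did not pass. In Ctrl cells, the receptor chains *Ifnar1* (-0.28) and *Ifnar2* (-0.20), the RNA and lipopolysaccharide receptors *Tlr3* (-0.24) and *Tlr4* (-0.46), their adaptor *Ticam1* (-0.48) and the kinases *Tbk1* (-0.15) and *Ikbke* (-0.39) fell, as did *Irf8* (-0.23). The kinase *Jak2* (0.60), the repressor *Irf2* (0.33), its partner *Irf2bp2* (0.24) and the adaptor *Traf3* (0.51) rose. In KO cells, *Ifnar1* (-0.19), *Tlr4* (-0.35), *Ticam1* (-0.21) and *Ikbke* (-0.37) fell, and *Jak2* (0.48), *Irf2* (0.23), *Irf2bp2* (0.25) and *Traf3* (0.29) rose. Each value is a log2 fold change with an adjusted p under 0.05 by edgeR. Of the 17 GBP and IRG genes, 5 were called lower in Ctrl cells and 1, *Gbp4*, in KO cells, beside the same shares of all genes (9.69% and 5.59%).

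The ligand responses of KO and Ctrl cells were not found to differ for any of the 45 genes. The difference of the responses, KO minus Ctrl, was positive for 42 of 45 (51.1% of all genes) with a median of 0.16, but 0 were called by edgeR (0% of all genes were called), at an unadjusted p under 0.05 0 were higher (1.74% of all genes were) and 0 lower (1.86% of all genes were), and DESeq2 called 0. The median by isolation was -0.08, 0.35, 0.13 and 0.24. The largest among genes with the same sign in all 4 isolations were *Oas2* at 0.28 (95% interval -0.26 to 0.82), *Cmpk2* at 0.27 (-0.26 to 0.81) and *Mx2* at 0.23 (-0.49 to 0.95), intervals that allow changes in either direction. For *Rsad2* the difference was 0.38 (95% interval -0.31 to 1.08). The ligand and genotype comparisons share libraries, so their values are given side by side and not as separate evidence.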

How the data were processed

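RNA sequencing of 16 MLEC libraries from 4 isolations was analysed. The authors deposited raw counts per gene, with no scaling. According to the submitters' processing notes and the paper's methods, stranded poly(A) libraries were aligned with HISAT2 2.0.5 to GRCm39 and counted with featureCounts 1.5.0-p3, whose strand setting is not given in the sources used here.

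Genes were filtered with filterByExpr (minimum count 10, minimum total count 15) and normalised by TMM. A quasi-likelihood model with isolation as a block was fitted to all 16 libraries in R 4.3.3 with edgeR 4.0.16, with Benjamini-Hochberg adjustment over the 15693 genes tested and a threshold of 0.05. Alternatives used DESeq2 1.42.0, limma 3.58.1 and sva 3.50.0. CPM values use TMM library sizes, and log2 differences of single isolations a prior count of 2. The fit was tested on simulated data.

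The replicate numbers mark the isolations (how many mice gave each is not given in the sources used here). Deviations from the group means correlated over same-number libraries (mean r 0.757, range 0.670 to 0.805, 24 pairs). Over the 72 other pairs r ranged from -0.719 to 0.324. Their mean of -0.251 is no separate result, because subtracting the group means pushes it below 0. The replicate numbers do not say which wells were processed together. No 2 libraries of the same group agreed within sampling noise. The block removes level differences between isolations, so the p-values measure the spread that remains within isolations over the 16 libraries. PBS and ligand libraries of the same cells count there as separate samples. Genes with few counts, such as *Mx1* (down to 6 counts in a library), carry more counting error.

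The 45 genes, their roles, the other lists and the tests were chosen with earlier results of these data known. Genes given library by library were, in each comparison, those with an adjusted p under 0.05 (up to the 12 lowest p), the 3 largest changes among genes with the same sign in all 4 isolations, and *Irf9*, *Ifih1* and *Oasl1*. Exon overlaps came from a GENCODE annotation of GRCm39. The genotype comparison of the list of interferon receptors and their kinases is not reported here.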

Additional observations from a re-analysis of the deposited data

Results flagged for a closer look

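In 3 of the 90 sets of 4 values examined, 1 library stood far from the other 3 by Dixon's criterion (the gap to the nearest value as a share of the range, at the 95% level), and chance alone gives such a gap in about 1 set in 20. All 3 were Ctrl cells of isolation 4. *Bst2* in Ctrl PBS cells was at 589 CPM there against 283 to 321 CPM in isolations 1 to 3 (gap 0.873 of the range). *Oasl1* was at 31.8 CPM against 12.8 to 15.7 CPM in Ctrl PBS cells (0.850) and at 30.3 CPM against 11.9 to 13.7 CPM in Ctrl cells with ligand (0.902). No interaction between genotype and ligand passed the threshold in the 45 genes.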

How the results depend on the processing

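The median log2 fold changes of the 45 genes kept their direction under all the alternatives run, except for the KO ligand response, which went from -0.04 to 0.03 without isolation 1. All moved by less than the standard deviation of the 4 isolation medians, a wide limit that leaving out 1 isolation can hardly exceed. Without isolation 4 the KO against Ctrl median went from 0.35 to 0.53 in the average and from 0.28 to 0.47 in PBS. Without isolation 1 it was 0.17 in PBS. The numbers of genes called did not hold. Leaving out 1 isolation at a time gave 0 to 41 called for KO against Ctrl averaged over PBS and ligand (29 reported), 0 to 41 with ligand (2 reported), 0 to 33 in PBS (0 reported), 0 to 10 for ligand against PBS in Ctrl cells (2 reported) and 0 to 2 in KO cells (0 reported). In these 5 comparisons the highest number was without isolation 4. Of all genes, 1.64%, 1.12%, 0.44%, 8.87% and 4.75% were called then, in the same order. Without the isolation block, none of the 45 was called in any comparison (0), and the cause was not tested. Same-number libraries are paired by isolation. With PBS and ligand counts summed per isolation and genotype, an alternative added after seeing the data, 0 were called in the average comparison, and 8 samples then remain. The other settings keep PBS and ligand libraries as separate samples. The average comparison then had 28 called with RLE size factors, 30 with DESeq2 and 24 of 44 tested with at least 10 counts in every library. It had 40 with quantile normalisation, ComBat and DESeq2, and 41 without a filter on low counts. The shares of all genes called were 1.34%, 1.75%, 1.44%, 4.66% and 2.03%. DESeq2 with the isolation block called 11 with ligand, 1 in PBS and 1 for the ligand response of Ctrl cells. Of all genes it called 0.898%, 0.0446% and 8.74%. Without a filter on low counts the numbers were 41, 34, 25, 2 and 3 for ligand, PBS, the Ctrl response, the KO response and their difference. The shares of all genes called were 1.76%, 0.695%, 6.02%, 3.76% and 0.177%. With at least 10 counts in every library, 0 were called with ligand (0.211% of all genes were). From the libraries of each comparison alone, 9 were called with ligand, 25 for the Ctrl response and 2 for the KO response. All genes were called there at 0.367%, 10.5% and 7.25%. Quantile normalisation, ComBat and DESeq2, in the order of the study's methods, gave 40 with ligand, 18 in PBS, 9 for the Ctrl response and 1 for the KO response. This order called 3.39%, 1.08%, 13.9% and 8.56% of all genes. The KO response of *Ifih1*, near 0, changed sign with DESeq2 (-0.00817), RLE size factors (-0.00355), at least 10 counts in every library (-0.00128), ComBat (-0.0116) and without isolation 2, 3 or 4 (range -0.0564 to 0.107 when leaving out 1 isolation), and that of *Oasl1* without isolation 4 (range -0.00531 to 0.146).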
